A study of Mus musculus with 2 samples.

Results

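Small nuclear RNAs (snRNAs) were described here in total RNA of whole mouse adrenal gland. They were chosen by their annotated type, snRNA, and selected on their expected counts, of which each had to hold at least 10 in both libraries. These were 31 genes, of 1383 annotated snRNA genes and 55536 annotated genes in all. Because the counts chose them, their counts and the levels derived from them are given as a description. There was 1 group, adrenal tissue of male B6CASTF1/J mice aged 25 days, with no treated or control samples, and it had 2 libraries (replicate 1 and replicate 2). B6CASTF1/J mice are first-generation hybrids of the C57BL/6J and CAST/EiJ strains, and which parental allele gave the reads was not tested. Each library was made from 300 ng of total RNA with a kit that keeps the strand, after ribosomal RNA was reduced and spike-in RNAs were added. The labels disagree on whether the libraries came from separate animals, so the spread between them may not be that between animals. The libraries also differed widely in liver and skeletal muscle markers, given below.

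The spliceosome removes introns from pre-mRNA, and its snRNAs carry the base-pairing that finds the splice sites. In the major spliceosome U1 pairs with the 5′ splice site, U2 pairs with the branch site, and U4, U5 and U6 arrive together as the tri-snRNP. In the minor spliceosome, which removes a rare class of introns, U11 and U12 stand in for U1 and U2. Most spliceosomal snRNAs are made by RNA polymerase II, bind a ring of Sm proteins in the cytoplasm and return to the nucleus, whereas U6 is made by RNA polymerase III and binds the LSM ring. U7 acts outside splicing, in 3′ end processing of replication-dependent histone mRNAs. In mammals many of these RNAs come from repeated gene copies with few or no differences between them.

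Each gene was placed in a family by its symbol or by the match of its transcript to a transcript with an Rnu symbol. Of the 31 genes, 14 were U1, 12 were U2, 1 was U11 (Rnu11) and 1 was U12 (Rnu12). The remaining 3, Gm24265, Gm24407 and Gm25541, matched no Rnu-named transcript closely enough and are left without a family. Within the annotation, 87 genes were of the U1 family, 21 of U2, 5 of U11, 4 of U12, 11 of U5, 697 of U6 and 58 of U7. The other 500 annotated snRNA genes, these 3 included, were left without a family.

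The following sequences are the annotated transcripts on which the results turn, from GENCODE M21 on GRCm38 (mm10), written 5′ to 3′ with T for U. For U1, Rnu1a1 (chr11:87422867-87423030, plus strand) stands for 7 identical copies, and its capitals mark the stretch that pairs with the 5′ splice site. In Gm22513 and Gm24305, capitals mark the base that differs from Rnu1a1.
Rnu1a1: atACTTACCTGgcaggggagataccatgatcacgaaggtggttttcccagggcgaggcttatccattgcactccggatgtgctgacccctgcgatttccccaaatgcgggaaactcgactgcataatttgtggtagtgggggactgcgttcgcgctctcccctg
Gm22513: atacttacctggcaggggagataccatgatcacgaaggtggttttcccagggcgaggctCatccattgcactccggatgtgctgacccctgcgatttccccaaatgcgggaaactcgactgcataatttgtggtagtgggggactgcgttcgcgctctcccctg
Gm24305: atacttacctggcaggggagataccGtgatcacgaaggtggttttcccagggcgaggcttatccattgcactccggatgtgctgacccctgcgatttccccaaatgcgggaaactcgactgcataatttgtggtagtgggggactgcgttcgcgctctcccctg

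For U2, Rnu2-10 (chr11:101658238-101658428, plus strand) stands for 4 identical copies, and its capitals mark the stretch that pairs with the branch site. Gm23472 (chr1:72236946-72237136, plus strand), identical to Gm23444, has its difference from Rnu2-10 in capitals. Gm24497 and Gm25939 lie near it on chromosome 1, and their capitals mark the bases that differ from Gm23472.
Rnu2-10: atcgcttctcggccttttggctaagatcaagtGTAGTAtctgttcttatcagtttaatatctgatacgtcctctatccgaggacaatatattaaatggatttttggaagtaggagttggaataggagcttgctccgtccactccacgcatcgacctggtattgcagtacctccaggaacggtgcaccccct
Gm23472: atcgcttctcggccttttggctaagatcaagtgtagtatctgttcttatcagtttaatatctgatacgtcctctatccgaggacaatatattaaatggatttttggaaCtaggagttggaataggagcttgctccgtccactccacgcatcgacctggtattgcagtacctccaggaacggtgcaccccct
Gm24497: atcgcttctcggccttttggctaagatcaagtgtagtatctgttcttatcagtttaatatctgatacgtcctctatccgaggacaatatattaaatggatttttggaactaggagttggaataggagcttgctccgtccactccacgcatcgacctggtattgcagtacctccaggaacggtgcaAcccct
Gm25939: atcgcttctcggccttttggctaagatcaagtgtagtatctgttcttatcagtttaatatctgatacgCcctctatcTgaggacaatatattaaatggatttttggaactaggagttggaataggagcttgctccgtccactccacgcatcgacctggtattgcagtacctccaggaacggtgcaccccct

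U11 and U12, of the minor spliceosome, had 1 measured gene each, Rnu11 (chr4:132270080-132270213, minus strand) and Rnu12 (chr15:83149644-83149794, plus strand). Capitals mark a stretch of the Sm type, which is longer in Rnu11 than in Rnu12.
Rnu11: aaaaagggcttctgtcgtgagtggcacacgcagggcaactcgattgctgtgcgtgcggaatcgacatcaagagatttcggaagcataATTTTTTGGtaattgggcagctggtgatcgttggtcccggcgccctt
Rnu12: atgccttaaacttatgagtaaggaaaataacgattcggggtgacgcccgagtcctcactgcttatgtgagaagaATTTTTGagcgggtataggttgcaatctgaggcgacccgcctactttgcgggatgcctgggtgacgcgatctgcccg

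Of the genes without a family, Gm24265 (chr5:115489459-115489599, plus strand) has the same stretch as Rnu12 in capitals, and Gm24407 has in capitals the bases that differ from Gm24265. Gm25541 (chr2:27539805-27539930, minus strand) is the shortest of the 31.
Gm24265: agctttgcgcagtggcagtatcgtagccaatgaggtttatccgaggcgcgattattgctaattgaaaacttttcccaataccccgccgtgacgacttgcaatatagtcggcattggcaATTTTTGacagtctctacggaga
Gm24407: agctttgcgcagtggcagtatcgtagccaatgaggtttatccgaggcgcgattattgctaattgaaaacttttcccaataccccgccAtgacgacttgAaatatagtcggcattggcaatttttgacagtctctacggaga
Gm25541: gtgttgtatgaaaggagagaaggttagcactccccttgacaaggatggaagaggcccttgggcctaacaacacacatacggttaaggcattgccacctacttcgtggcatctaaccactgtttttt

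Because families were assigned by sequence match and most copies differ by few bases, shared stretches within a family describe the copies and test nothing. ACTTACCTG, searched on the transcript's own strand, was in 14 of 14 measured U1 copies and in 3.98% of the 1383 annotated snRNA transcripts. GTAGTA was in 12 of 12 measured U2 copies and in 3.69% of annotated snRNA transcripts. The Sm-type stretch ATTTTTG was in all 12 U2 copies, in Rnu12 and in 2 of the 3 genes without a family, against 3.33% of annotated snRNA transcripts. It was in 0 of 14 U1 copies and not in Rnu11, which has the longer stretch marked above. Other forms of an Sm-type stretch were not searched, so its absence does not mean that a gene lacks such a site. None of the 31 had overlapping matches to these 3 stretches. A match is a description of letters and not of binding.

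The 31 genes held 123986 of 34987819 annotated gene counts in replicate 1, which is 0.354% (exact Clopper-Pearson interval 0.352% to 0.356%). In replicate 2 they held 93591 of 34835147, which is 0.269% (0.267% to 0.270%). The mean share was 0.312% ± 0.0606 (SD, n = 2). Intervals cover counting error only, and these do not overlap, so the libraries differed by more than counting. The other 1352 annotated snRNA genes together held only 115 counts in replicate 1 and 63.1 in replicate 2.

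U2 was the most abundant family by counts and U1 the next. U2 genes held 2320 CPM (counts per 1000000 annotated gene counts) in replicate 1 and 1813 CPM in replicate 2, a mean of 2070 ± 359 (SD, n = 2). U1 genes held 1050 and 752.9 CPM in replicates 1 and 2, a mean of 901 ± 210. The 3 genes without a family held 171 and 118 CPM, almost all of it on Gm24265 and Gm24407. U12 held 2.20 and 2.04 CPM, and U11 held 0.657 and 0.632 CPM. The order U2, U1, genes without a family, U12, U11 was the same in both libraries, and the ranges of neighbours did not overlap.

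**Figure D1:**
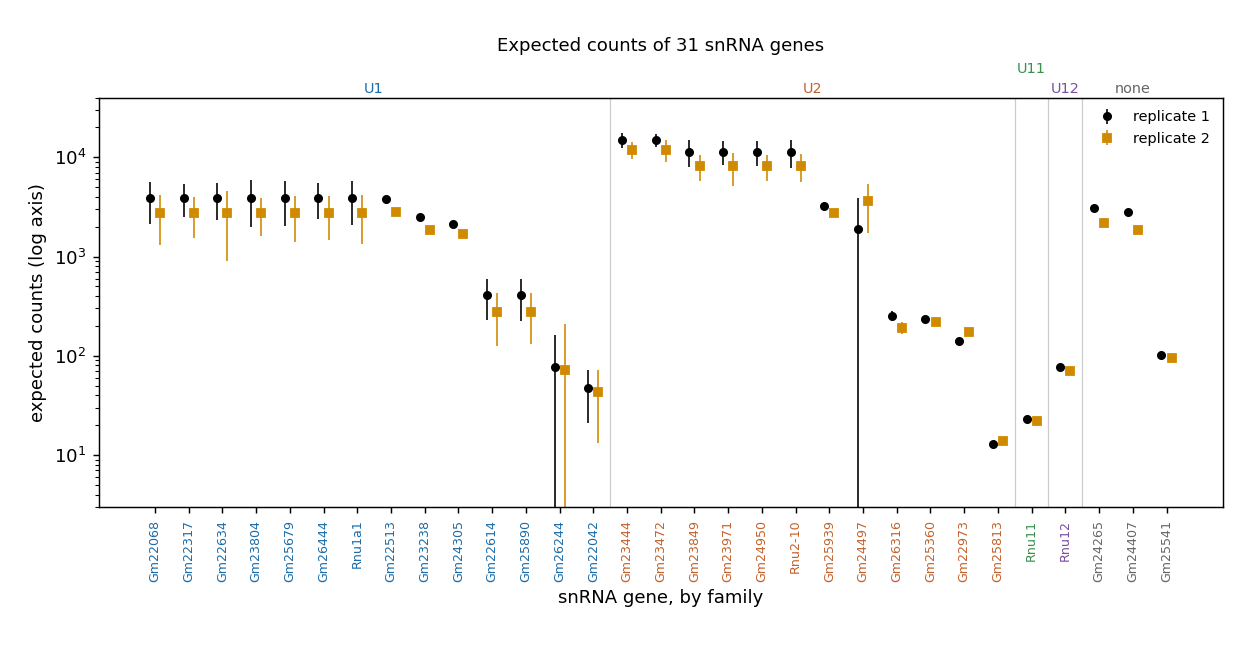
Expected counts of the 31 snRNA genes (log axis) in replicate 1 (black circles) and replicate 2 (orange squares), ordered by family and by count in replicate 1; "none" marks genes without a family, and bars are the deposited posterior SD, running off the axis where they reach below it. U2 and U1 copies reach above 1000 counts with wide bars where copies are identical, while Rnu11 and Rnu12 lie at 22 to 77 counts with an SD of 0.

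Within U1, 7 genes had the same 164-base sequence: Rnu1a1, Gm22068, Gm22317, Gm22634, Gm23804, Gm25679 and Gm26444. Each was given 3907 counts in replicate 1 and 2747 in replicate 2, an equal division of reads that cannot be assigned to one of them. Together they held 27351 and 19230 counts, or 74.5% and 73.3% of the U1 counts of their library. The deposited posterior SD, the quantification's own error of a count given reads that match several genes, was for a single copy 36.3% to 49.4% of its count in replicate 1 and 42.0% to 67.3% in replicate 2. For these 7, only their sum is therefore a measurement, of the sequence they share, and the level of Rnu1a1 alone is not.

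Other U1 copies can be told apart by 1 base. Gm22513 carries T60C against Rnu1a1, counted from 1 at the 5′ end, and 60 of its 65 windows of 100 bases occur in no other annotated transcript. It held 3815 counts in replicate 1 and 2812 in replicate 2, with a posterior SD of 2.23 and 1.93 counts. Gm24305 carries A26G, which 26 of 65 windows cover, and it held 2141 and 1671 counts with a posterior SD of 162 and 141 counts. Gm23238, the copy on chromosome 19, differs from Rnu1a1 by G12A, A23T, C153T and C160A and held 2473 and 1841 counts. These 3 copies, which have windows of their own, together with the identical set account for nearly all U1 counts in either library.

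The annotated U1 transcripts came in lengths of 164 and 165 bases among the measured genes. The 11 copies of 164 bases held 97.6% of U1 counts in replicate 1 and 97.7% in replicate 2. The 3 copies of 165 bases, Gm22614, Gm25890 and Gm22042, held 2.36% and 2.29%. Gm22614 and Gm25890 are identical and were given 409 counts each in replicate 1 and 279 each in replicate 2. Gm26244, which lies inside Rock1 on the same strand, held 77.7 and 71.2 counts with a posterior SD of 85.9 and 137 counts, so its count was smaller than its error in both libraries. Gm22042 held 46.9 and 43.0 counts with an SD of 25.7 and 29.7 counts.

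Within U2, Rnu2-10, Gm23849, Gm23971 and Gm24950 had the same 191-base sequence and were given 11386 counts each in replicate 1 and 8152 each in replicate 2. Their sum was 45546 and 32606 counts, or 56.1% and 51.6% of U2 counts. Gm23444 and Gm23472, identical to each other and different from Rnu2-10 by G109C, were given 14948 and 11822 counts each in replicates 1 and 2. Gm25939 carries T69C and C78T against Gm23472, and 78 of its 92 windows are its own. It held 3212 counts in replicate 1 and 2730 in replicate 2 with a posterior SD of 4.59 and 4.00 counts.

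Position 109 of U2 splits the family into a pair of abundant forms, and 83 of 92 windows cover it. The 6 copies that match Rnu2-10 there held 56.4% of U2 counts in replicate 1 and 51.9% in replicate 2. The 5 copies with G109C, on chromosomes 1 and 11, held 43.4% and 47.8%. Gm22973, with G109A, held 0.172% and 0.274%. These shares do not depend on how the libraries are scaled, and the posterior mean counts gave the same shares. The log2 ratio of replicate 1 over replicate 2 was 0.24 for the copies that match Rnu2-10 (counting interval 0.22 to 0.26) and −0.02 for those with G109C (−0.04 to 0.01). The intervals do not overlap, so the U2 forms differed between the libraries by more than counting. The G109C ratio was above 0 when scaled by total counts (0.22) or spike-in totals (0.34), and the ratio of the other form was then 0.48 and 0.60. This position was chosen after its values were seen, and whether the parental strains differ there was not tested.

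Low U2 copies were also told apart. Gm25360 held 235 counts in replicate 1 and 219 in replicate 2, Gm22973 held 140 and 173, and all 92 windows of both are their own. Gm25813, on chromosome 8, held 13.0 and 14.0 counts, the fewest of the 31. Gm26316 differs from Rnu2-10 by C170T and held 254 and 193 counts with a posterior SD of 30.2 and 25.1 counts.

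Rnu11 held 23 counts in replicate 1 and 22 in replicate 2, and Rnu12 held 77 and 71. Both RNAs carry the recognition step of the minor spliceosome, both counts had a posterior SD of 0, and all windows of both are their own on their strand. All 35 windows of Rnu11 are also found on the opposite strand, in the lincRNA Gm28872. That gene was listed at 0 counts in both libraries, and whether the counting used the strand is not given in the sources used here. U11 and U12 together amounted to 0.0848 counts per 100 U1 and U2 counts in replicate 1 (interval 0.069 to 0.103) and 0.104 in replicate 2 (0.084 to 0.127). These intervals overlap. Per annotated base the values were 0.105 and 0.129 per 100, and by TPM, the deposited level per effective length, they were 0.148 and 0.183 per 100. Rnu11 and Rnu12 have shorter effective lengths (35 and 52 bases) than the U1 genes (65 or 66) and U2 genes (92). The part of length in this ratio was not tested, so it is not given as the abundance of these RNAs in the cell. The 3 genes without a family are in neither part of this ratio. With Gm25541, described next, added to U11 and U12 the ratio was 0.171 per 100 in replicate 1 and 0.209 in replicate 2, so it depends on how that gene is placed.

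Gm24265 and Gm24407 lie next to each other on chromosome 5 and differ by G88A and C99A, which all 42 windows cover. Gm24265 held 3086 counts in replicate 1 and 2167 in replicate 2, and Gm24407 held 2789 and 1840. Each is thus more abundant by count than Rnu11 and Rnu12 together in both libraries, and their posterior SD was under 1 count. Gm25541 held 101 counts in replicate 1 and 94 in replicate 2, all on windows of its own. What these 3 RNAs do is not annotated in the files, and no symbol in the annotation names U4, U4atac or U6atac. The family step could therefore place no gene in U4, U4atac or U6atac. Whether these 3 genes belong to them was not tested, so the lack of such a family here does not mean that these RNAs were absent.

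The U5, U6 and U7 families were nearly or wholly without counts. The 697 U6 genes together held 3 counts in replicate 1 and 1 in replicate 2, and the 11 U5 genes held 2 and 4. All 58 U7 genes, Rnu7 included, were listed at 0, as were Rnu5g, Rnu6 and Rnu6-ps2. Where the effective length is above 0, a count of 0 allows up to 0.0857 CPM in replicate 1 and 0.0861 CPM in replicate 2. It was 0 for all 58 U7 genes, so their count sets no such limit. These families were also barely measurable here. The deposited effective length equals the number of places where a window of 100 bases can start inside a transcript. It was 8 bases for a U6 of 107 bases, 17 for a U5 of 116 bases and 0 for the 62-base U7. The effective length was 0 for 193 annotated snRNA genes and under 30 bases for 1106, of which Gm25541, at 27 bases, was the only one measured.

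The error of single copies was widest where few or no windows were their own. The 31 genes had 20 distinct sequences, and 15 genes had an annotated copy identical to themselves and so no window of their own. These 15 held 83.6% of the counts in replicate 1 and 81.2% in replicate 2, with a median posterior SD of 39.3% and 43.6% of the count. The 8 genes with some windows of their own had a median of 9.72% and 10.7%, but ran from 0.0585% to 111% in replicate 1 and from 0.0686% to 193% in replicate 2, with Gm26244 the highest in both. Gm26244 and Gm22042 in both libraries, and Gm24497 in replicate 1, thus exceeded all 15 genes that have no window of their own. The 8 genes with all windows their own had a median of 0.0287% and 0.0392%, and the highest was 1.38% and 0.785%, for Gm25813. No window of the 31 occurs in an annotated transcript that is not an snRNA. A posterior SD of at least 10% of the count in both libraries was found in 19 of the 31, beside 507 of all 16930 genes with at least 10 counts in both libraries, or 2.99%.

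**Figure D2:**
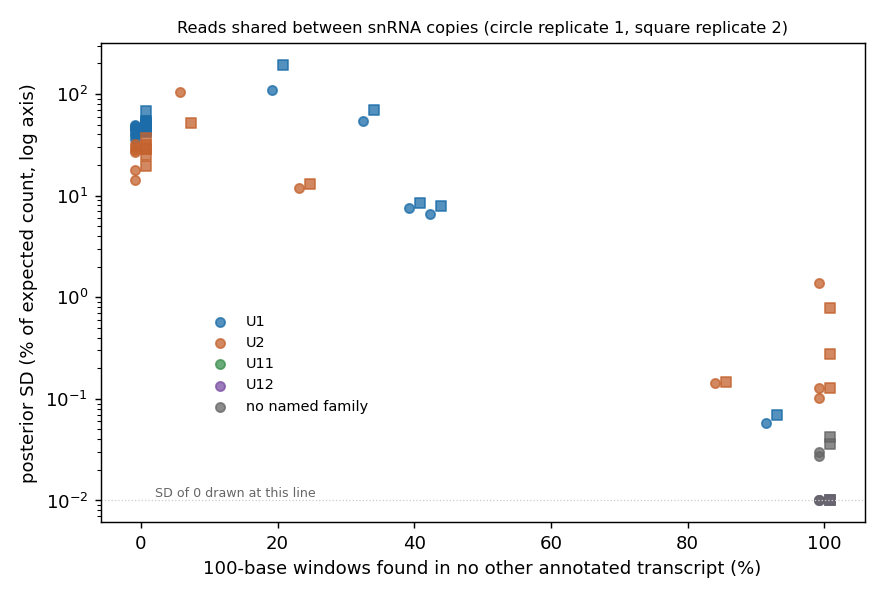
Posterior SD as a percent of the expected count (log axis) against the percent of a gene's 100-base windows that occur in no other annotated transcript, for 31 snRNA genes in replicate 1 (circles) and replicate 2 (squares), coloured by family. Genes with no window of their own lie at 14.3% to 67.3%, genes with some lie between 0.0585% and 193%, and genes with all windows their own lie at or below 1.38%.

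Gm24497 had different values by the deposited estimates of its count. It differs from Gm23472 by C186A, which only 6 of its 92 windows cover. Its expected count was 1890 in replicate 1 and 3591 in replicate 2, while the posterior mean of the same count was 8615 and 8306, with a posterior SD of 1961 and 1851 counts. The posterior means of Gm23444 and Gm23472 were lower than their expected counts, at 11248 and 11923 in replicate 1 and 8312 and 10615 in replicate 2. Summed over the 3 genes, the expected counts were 31787 and 27234, and the posterior means gave the same sums to the nearest count. The sum over these 3 copies was thus the same by both estimates, whereas its division between them was not.

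Between the libraries, the 31 genes were compared as log2 ratios of replicate 1 over replicate 2 with TMM scaling, which matches the libraries on the bulk of their genes. With 1 library on each side no p-value exists, and a gene was called at a difference of at least 2-fold. Of the 31, 1 gene, Gm24497, was called (1 higher in replicate 2 and 0 higher in replicate 1), beside 7.62% of all 16930 genes with at least 10 counts in both libraries. Of those genes, 1.36% were higher in replicate 1 and 6.26% higher in replicate 2. The ratio of Gm24497 was −1.16 (counting interval −1.25 to −1.08) by expected counts and −0.19 by posterior mean counts. It fell short of 2-fold by total counts (−0.93), by spike-in totals (−0.81) and by deposited TPM (−0.94). The call thus rests on a count whose division between copies was uncertain.

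The other ratios were small. Of the 31, 21 had a ratio above 0 and 10 below, with a median of 0.20, beside 0.01 over all 16930 genes. The counting interval lay above 0 for 20 genes, below 0 for 2 (Gm24497 and Gm22973) and held 0 for 9, but identical copies share their reads and so are not separate observations. Scaling by total counts moved the median of all genes to 0.25, and scaling by spike-in totals moved it to 0.37. The median of the 31 was 0.19 above that of all genes. Each of these scalings shifts every ratio by the same amount, so this difference is the same under all of them by construction. Gm24407 had the highest ratio, 0.36 (0.28 to 0.45), and Gm24265 had 0.27 (0.19 to 0.35). Gm22973 had −0.55 (−0.88 to −0.21).

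By family, U1 had a log2 ratio of 0.25 (counting interval 0.22 to 0.27) and U2 of 0.12 (0.11 to 0.14). The interval held 0 for U11, at −0.17 (−1.08 to 0.74), and for U12, at −0.12 (−0.61 to 0.36). At 22 to 77 counts a library, a difference in U11 or U12 of the size seen in U1 was not detectable. U11 and U12 were above 0 when scaled by total counts (0.06 and 0.11), by spike-in totals (0.18 and 0.24) or by TPM (0.05 and 0.11). In bulk tissue, fewer cells of a type and less RNA per cell cannot be told apart.

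**Figure D3:**
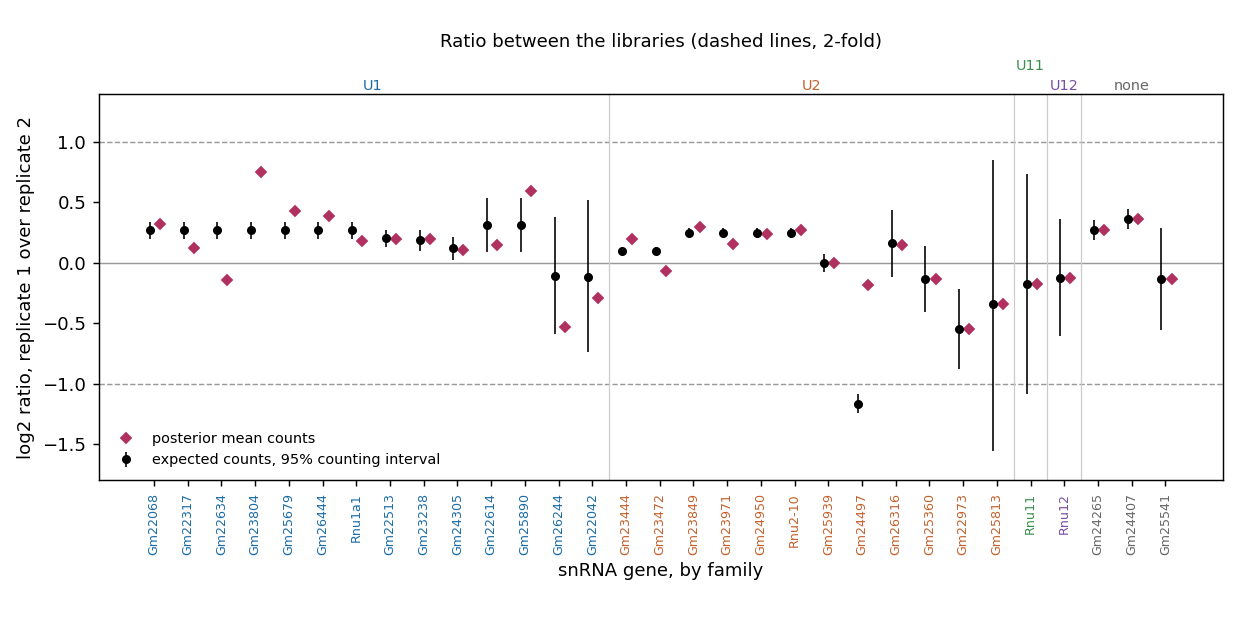
Log2 ratio of replicate 1 over replicate 2 for 31 snRNA genes, from expected counts with TMM scaling (black circles, with 95% counting intervals) and from posterior mean counts (red diamonds); the dashed lines mark 2-fold and "none" marks genes without a family. Gm24497 alone lies past 2-fold, at −1.16, and its posterior mean ratio is −0.19.

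The libraries also differed in markers of cell types. All 7 adrenal cortex markers and all 6 chromaffin markers were present in both libraries, and the cortex markers summed to 12340 TPM in replicate 1 and 6802 in replicate 2. The 6 liver markers summed to 107.6 TPM in replicate 1 and 19060 in replicate 2. The 6 skeletal muscle markers summed to 1088 TPM in replicate 1 and 1.7 in replicate 2, where 1 of the 6 was at 0. Erythroid markers summed to 3914 and 2482 TPM and brown adipocyte markers to 1163 and 766 TPM in replicates 1 and 2. The part of these cells in the snRNA ratios was not tested.

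The deposited TPM gave these RNAs far more weight than their counts. TPM divides each count by the effective length, so 1 count was worth 0.318 TPM on a U2 gene (effective length 92 bases) and 0.450 TPM on Rnu1a1 (65 bases) in replicate 1. On Rnu12 (52 bases) 1 count was worth 0.563 TPM, on Gm24265 (42 bases) 0.697 TPM, on Rnu11 (35 bases) 0.837 TPM and on Gm25541 (27 bases) 1.08 TPM. The single count of the U6 gene Gm23864 in replicate 2 gave 3.68 TPM. The 31 genes held 4.72% of annotated gene TPM in replicate 1 and 3.55% in replicate 2, a mean of 4.13% ± 0.822 (SD, n = 2). That is 13.3 and 13.2 times their share of counts.

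The weighting also changed the balance of families. U2 held 65.5% of the snRNA counts in replicate 1 and 67.5% in replicate 2, but 55.4% and 57.7% of the snRNA TPM. U1 held 29.6% and 28.02% of counts and 35.5% and 33.9% of TPM. The 3 genes without a family held 4.82% and 4.38% of counts and 9.02% and 8.30% of TPM. U2 over U1 was 2.21 and 2.41 by counts in replicates 1 and 2, 1.90 and 2.07 per annotated base, and 1.56 and 1.70 by TPM. U2 thus exceeded U1 on all 3 scales in both libraries. U12 over U11 was 3.35 and 3.23 by counts and 2.25 and 2.17 by TPM.

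Ranks among the 55536 genes moved with the scale. By mean TPM, Gm23444 and Gm23472 ranked 20 and Rnu2-10 ranked 26, whereas by mean count they ranked 196 and 291. Rnu1a1 ranked 43 by TPM and 1499 by count, and Gm24265 ranked 38 and 2066. The ranks of Rnu1a1, Rnu2-10, Gm23444 and Gm23472 rest on the equal division of reads between identical copies. Gm25541 ranked 645 by TPM and 13032 by count. Rnu12 ranked 1689 by TPM and 13583 by count, and Rnu11 ranked 4028 and 16126.

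**Figure D4:**
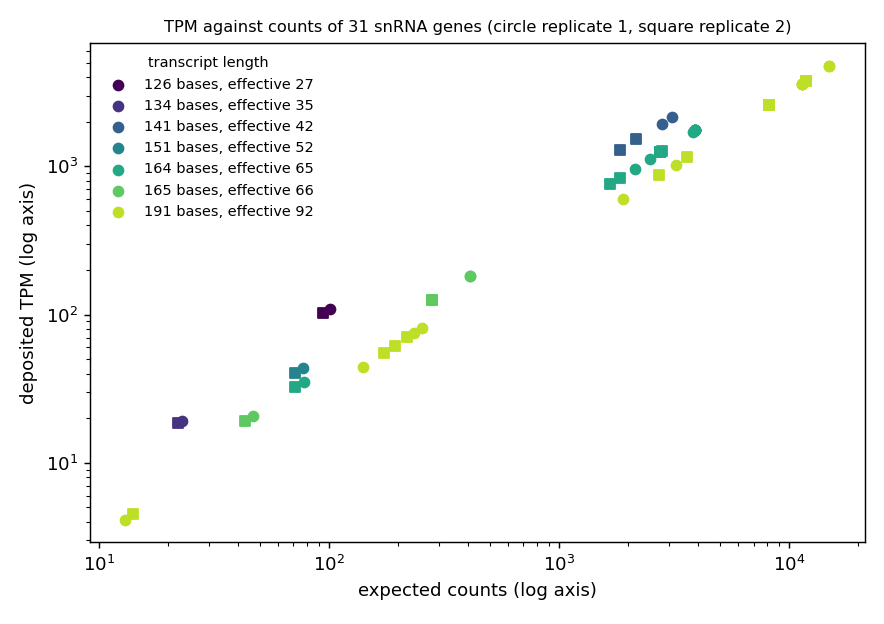
Deposited TPM against expected counts (both log axes) of 31 snRNA genes in replicate 1 (circles) and replicate 2 (squares), coloured by transcript length and effective length in bases. Genes of one length fall on one line, and the shorter the effective length the higher the TPM for a given count: 1.08 TPM per count for Gm25541 and 0.318 for U2 in replicate 1.

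A second quantification of the same libraries, deposited as estimated counts per transcript, gave 0 counts to all 31 genes and to all 1383 annotated snRNA genes. Its effective lengths for the 31 genes were 34.3 to 44.5 bases in replicate 1 and 34.4 to 44.6 in replicate 2, against 27 to 92 in the first. Other short RNAs also had far fewer counts in the second quantification. Rn7sk, the 7SK RNA that holds the elongation factor P-TEFb inactive, had 356433 counts in replicate 1 and 289206 in replicate 2 in the first quantification and 4 in each in the second. Rpph1, the RNA of RNase P, had 56108 and 47751 counts in the first and 18 and 13 in the second. Rn7s1 and Rn7s2, copies of the signal recognition particle RNA, were given 1010875 counts each in replicate 1 and 1001257 each in replicate 2 in the first, and 3.5 and 1.5 in the second. The 2 annotated genes named Rmrp, the RNA of RNase MRP, had 28998 and 16200 counts in replicate 1 and 29889 and 15906 in replicate 2, and 0 in the second.

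Most measured U1 and U2 genes lay in a few loci. On chromosome 12, 7 U1 genes fell within 41.8 kb (chr12:54696782-54738622) and held 20.6% of the snRNA counts in replicate 1 and 19.5% in replicate 2. On chromosome 11, 5 U2 genes fell within 53.6 kb (chr11:101604850-101658428) and held 36.9% and 35%. Rnu1a1 and Gm22068 span 4.0 kb inside Tex14 on its strand. On chromosome 1, 4 U2 genes with G109C fell within 29.0 kb (chr1:72226240-72255198) and held 16.4% and 19.6%. There, Gm23472, Gm24497 and Gm25939 lie inside the lincRNA D230017M19Rik on its strand, which itself had 17 counts in replicate 1 and 13 in replicate 2. Because identical copies were given equal counts, the share of a locus depends on that equal division.

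The count minimum of 10 left out few genes near it. Just below it were Rnu1b1 and Rnu1b2, identical in count at 8.18 in replicate 1 and 5.38 in replicate 2, and Gm24830, Gm26232 and Rnu1b6, each at 19.2 and 7.45. Just above it were Gm25813, Rnu11, Gm22042, Rnu12 and Gm26244, with 13.0 to 71.2 counts in their lower library. Of the annotated snRNA genes, 1308 had 0 counts in both libraries and 44 had some counts but fewer than the minimum in at least 1 library.

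Genes for proteins that bind, make or process snRNAs were expressed throughout. The 12 lists held 118 genes, of which 117 reached 1 TPM in each library, with a median of 11.4 TPM in replicate 1 and 9.76 in replicate 2. None of the 118 differed at least 2-fold, beside 14.1% of all 19772 genes with at least 10 counts in total. Of those 19772 genes, 3.91% were higher in replicate 1 and 10.2% in replicate 2. All 118 had at least 10 counts in both libraries, and among the 16930 such genes the share was lower, 7.62%. The median log2 ratio of the 118 was 0.08, beside 0.01 over the 19772 genes. The 118 ran from −0.35 for Gemin2, an SMN complex member, to 0.57 for Lsm11, a U7 ring protein. Fold changes of single genes here have no replicate check.

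Among U1 proteins, Snrnp70 had 130 TPM in replicate 1 and 95.3 in replicate 2, and Snrpa had 29.0 and 25.6 TPM. Of the Sm core, Snrpg had 77.6 and 53.4 TPM and Snrpb 59.7 and 47.2 TPM. The U2 proteins Sf3b2 and Sf3b1, which help U2 hold the branch site, had 56.5 and 42.5 TPM in replicate 1 and 48.8 and 35.2 in replicate 2. In the U5 list Prpf8, the large protein at the heart of the spliceosome, had 45.9 and 45.7 TPM and the helicase Ddx23 27.9 and 24.7 TPM. Although U5 and U6 RNAs were nearly without counts, all 8 U5 proteins, all 8 tri-snRNP proteins and all 7 LSM ring proteins reached 1 TPM in each library. Lsm6 led the LSM ring with 48.3 and 37.4 TPM, and Sart1 and Snu13 led the tri-snRNP list with 29 and 28.5 TPM in replicate 1 and 22.02 and 19.9 in replicate 2.

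The 13 minor spliceosome protein genes had a median of 7.98 TPM in replicate 1 and 7.03 in replicate 2, and 4 of them had a ratio above 0 and 9 below, with a median of −0.05. Zcrb1 had 25.9 and 21.2 TPM and Zmat5 11.9 and 10.7 TPM in replicates 1 and 2. Of the 10 snRNA transcription genes, Snapc4, part of the complex on the snRNA promoter, had 13.5 and 10.3 TPM and Ice1, of the little elongation complex, had 9.79 and 7.85 TPM. The 14 Integrator genes, whose complex cuts nascent snRNA at its 3′ end, were all above a TPM of 1, with Ints3 at 31.1 and 23.02 TPM and Ints4 at 18.2 and 19.01. In the assembly list Strap had 39.2 and 32.5 TPM and Gemin7 24.0 and 17.9 TPM. For histone mRNA processing, Sympk had 33.5 and 29.8 TPM and Cpsf3 20.7 and 18.8 TPM. The 7SK partners Hexim1 and Mepce had 25.8 and 17.7 TPM in replicate 1 and 20.1 and 13.7 in replicate 2.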

How the data were processed

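Per the labels, RNA from adrenal tissue was made into directional libraries with ribosomal RNA reduced. Values are those of the mm10 assembly with annotation M21. No source used here names the aligner or the quantifiers. The authors deposited, per the file headers, expected counts and TPM per gene with the posterior mean and SD of each count, and a second set of estimated counts and TPM per transcript, which were summed per gene here. Gene totals leave out the 96 spike-ins and rows without a gene name. Replicate 1 held 35283841 and replicate 2 held 35156690 counts in all, 0.839% and 0.915% on spike-ins.

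Families came from blastn 2.17.0 matches to Rnu-named transcripts of GENCODE M21 (at least 80% identity over at least 50%). Every 100-base window of the 31 genes was searched in all M21 transcripts. Ratios used TMM factors of edgeR 4.0.16 (1.08 and 0.923) over annotated genes, with expected counts rounded for 95% exact Clopper-Pearson intervals. The ratios were tested on simulated independent counts without reads shared between copies, so that test does not cover the intervals of single copies. Intervals cover counting error only, since reads carry no molecular identifiers. No test between groups was possible. Calculations used Python 3.11.15.

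The members and lists were chosen with earlier results of these data known. Named were all members with an Rnu symbol, the 20 other members with the most counts, the 5 on each side of the count minimum, the 5 with the largest and smallest posterior SD over the square root of the count, all called, Rnu-named genes that missed the minimum, the 2 protein genes of highest TPM per list, and 5 other short RNAs. Gm23864, Gm28872, D230017M19Rik, Gemin2, Lsm11 and the host genes were named after their values were seen. Alternatives covered scaling, count minimum, fold, posterior mean counts, the second quantification, length and leaving out a library.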

Additional observations from a re-analysis of the deposited data

How the results depend on the processing

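The number of snRNA genes stayed within 30 to 36 at count minimums of 5 and 20, was 28 at 50 and 37 by posterior mean, and ran from 31 to 34 with 1 library left out. The second quantification gave 0 genes, 0% of counts, 0% of TPM and 0 counts in every family, so it gave no ratio and no minor over major value. The mean count share was 0.269% without replicate 1 and 0.354% without replicate 2. The mean TPM share was 3.55% without replicate 1 and 4.72% without replicate 2, and 2.26% with counts divided by full annotated length.

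The number of snRNA genes at least 2-fold apart, 1 as reported, was 0 by total counts, by spike-in totals, by TPM, by posterior mean and at 3-fold. It was 4 at a count minimum of 5, where Gm24830, Gm26232 and Rnu1b6 joined Gm24497. These were given the same counts, 19.23 each in replicate 1 and 7.45 in replicate 2, and so are not separate observations. Their posterior SD was 19.35 to 22.7 counts in replicate 1 and 14.52 to 15.33 in replicate 2, above the count itself. With identical copies summed it was 1, and with Gm24497 pooled with Gm23444 and Gm23472 it was 0, both chosen after seeing the data.

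Mean family levels of 901 (U1), 2067 (U2), 0.645 (U11), 2.12 (U12) and 144 (no family) CPM were 14210, 23040, 18.9, 41.8 and 3560 in TPM. With TPM recomputed from counts over full annotated length they were 7155, 14090, 6.26, 18.3 and 1336. With 1 library left out they ran from 753 to 1050, 1813 to 2320, 0.632 to 0.657, 2.04 to 2.20 and 118 to 171 CPM.

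Log2 ratios of U1, U2 and the genes without a family were 0.48, 0.36 and 0.54 by total counts, 0.60, 0.48 and 0.66 by spike-in totals, and 0.48, 0.35 and 0.53 by TPM. The cause was not tested beyond the shift of all genes given above.

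The mean of 0.0944 U11 and U12 counts per 100 U1 and U2 counts was 0.117 per annotated base, 0.165 by TPM and 0.754 with only Rnu-named copies kept, and ran from 0.0848 to 0.104 with 1 library left out. Chosen after seeing the data, it was 0.190 with Gm25541 added to U11 and U12, and 0.181 with Gm24265 and Gm24407 also added to U1 and U2. The number of protein genes called was 0 under all 6 alternatives. No paired analysis was possible because there is 1 group. U11 and U12 rest on 22 to 77 counts a library. The part of abundance, depth and length in the low counts of U5, U6, U11 and U12 was not tested. All 58 U7 genes had an effective length of 0, so their listed 0 is no measure of their abundance.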
